A study of Bos taurus with 4 samples.

Results

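KRT5 (ENSBTAG00000038384) and CA12 (ENSBTAG00000019390) are 2 of the 24616 genes in an RNA-Seq table of longissimus dorsi muscle, and both had reads in each grain-fed library and in neither grass-fed library. They were chosen by these 4 values, so the difference between the diets is described here and was not tested. The table covers 4 Aberdeen Angus steers of a closed herd, all on 1 diet until weaning and then assigned at random to grass or grain. The grass-fed group (Grass-fed, n = 2) grazed alfalfa and ate stored forage in winter, with no grain, and the grain-fed group (Grain-fed, n = 2) was kept on corn, part of it ensiled, to which soybean and minerals were added. Each library came from 1 steer and was sequenced in reads of 50 bases. In the study the grass-fed steers were kept longer before slaughter than the grain-fed steers, and the grain-fed steers were held in confinement. Diet therefore cannot be told apart from age at slaughter or housing. The paper adds that the season at slaughter may also have played a part. The libraries are called Grain1, Grain2, Grass1 and Grass2 after the column headers, which do not say which steer each one was.

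KRT5 encodes a type II keratin, an intermediate filament protein that pairs with a type I keratin, in the basal layer of stratified epithelia usually KRT14. Skeletal muscle fibres build their intermediate filaments mainly from desmin, and KRT5 is best known as a marker of basal keratinocytes and of myoepithelial cells. CA12 encodes carbonic anhydrase XII, a zinc enzyme of the cell membrane whose catalytic domain faces outward and interconverts carbon dioxide and bicarbonate. It is best known in secretory and absorbing epithelia such as kidney tubule, colon and sweat gland, while the abundant carbonic anhydrase of muscle fibres is the cytosolic CA3. In the RefSeq gene table of the ARS-UCD2.0 assembly, KRT5 lies within the type II keratin cluster, between KRT71 and KRT6A, with KRT74, KRT72 and KRT73 beyond the former and KRT6B, KRT6C and KRT75 beyond the latter. CA12 lies between USP3 and APH1B, away from other carbonic anhydrase genes in that order. The neighbours carry no name in the deposited table, which was made on another assembly, so their reads are not given. Keratins of this cluster are similar in sequence, and the sources used here do not say how reads that fit several of them were counted.

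The primers that the study listed for measuring KRT5 by qPCR are shown here. They were not matched to a bovine sequence, so which keratin transcripts they amplify was not checked. They are written 5′ to 3′ in lower case with no part singled out, and each is 20 bases long.
KRT5 forward primer: ggtatcgttggggagagagg
KRT5 reverse primer: catcagtgcatcgaccttgg

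The deposited values had been adjusted by the authors to a common library size, and undoing that adjustment returned a whole number of reads for 100% of the genes that had any. The reads on genes ranged from 5683894 to 7447453 over the 4 libraries, with the lower totals on grain. Levels are given as counts per 1000000 reads on genes (CPM). Fewer genes had a read in the grain-fed libraries (11625 and 11201) than in the grass-fed libraries (14485 and 13487). The 20 genes with most reads took 49.9% and 55.7% of the grain-fed reads and 42.9% and 44.2% of the grass-fed reads. These differences move with the diet, and their part in the results below was not tested. Grass1 stood apart in genes read in 1 library alone, with 47 genes at 50 reads or more and 0 in each of the other libraries, against 4 in Grass2 and 21 in each grain-fed library.

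Of KRT5, Grain1 held 100 reads and Grain2 189, and Grass1 and Grass2 held 0 each. The deposited values, which are the reads adjusted to a common library size, were 131.0 in Grain1 and 261.4 in Grain2. Both grass-fed values were 1.39e-17, a number that 9097 genes carried in both grass-fed libraries and none in 1 of them alone, and the edgeR adjustment applied to 0 reads in both libraries gave a similar near-zero number (2.78e-17), so it was read as 0. The level of KRT5 was 17.6 CPM in Grain1 (exact 95% Poisson interval 14.3 to 21.4) and 28.9 in Grain2 (25.0 to 33.4). The diets did not overlap, and the 2 grain-fed levels differed from each other beyond their counting intervals. The grain-fed mean was 23.3 ± 8.02 CPM (SD, n = 2). A count of 0 allowed up to 0.443 CPM in Grass1 and 0.403 in Grass2, taking 3 reads as the limit in each. The exact 95% Poisson interval for a count of 0 reached higher, to 3.69 reads, or 0.544 CPM in Grass1 and 0.495 in Grass2. Intervals and limits cover counting error only and leave out variation between steers. PCR copies were not removed by molecular identifiers, so even the counting error may be understated.

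Of CA12, Grain1 held 71 reads and Grain2 112, and both grass-fed libraries held 0. The deposited grain-fed values were 93.05 and 154.9, and both grass-fed values were again 1.39e-17. The level of CA12 was 12.5 CPM in Grain1 (exact 95% Poisson interval 9.76 to 15.8) and 17.1 in Grain2 (14.1 to 20.6), so the 2 intervals overlapped. The grain-fed mean was 14.8 ± 3.29 CPM (SD, n = 2), and Grass1 and Grass2 allowed the same upper limits as for KRT5. In bulk muscle, fewer cells that make a transcript and less of it per cell cannot be told apart.

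**Figure D1:**
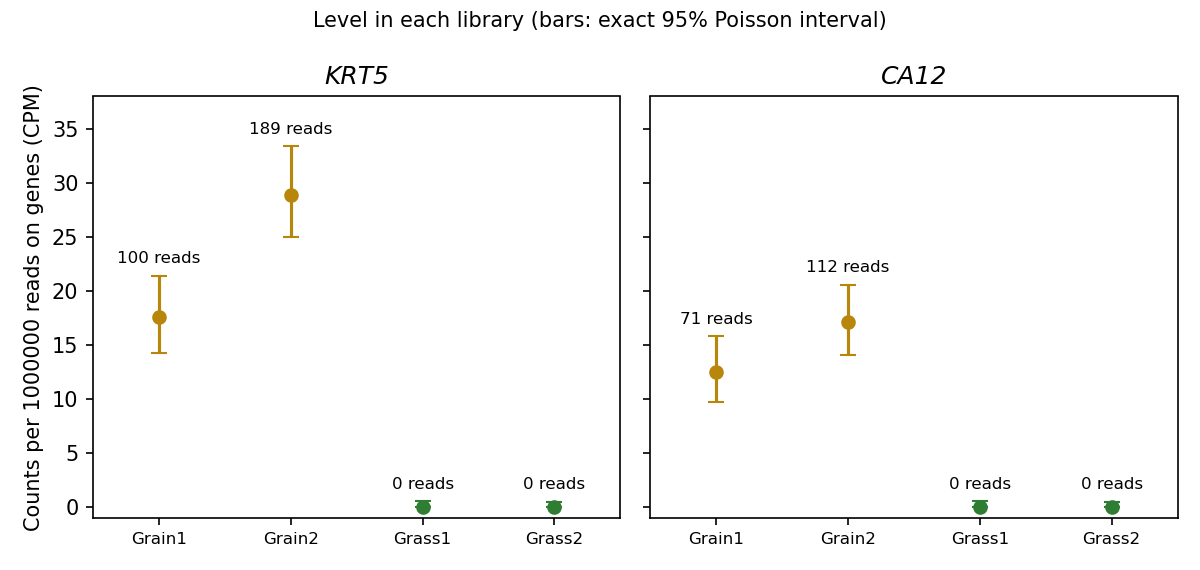
Level in CPM (y) of KRT5 (left) and CA12 (right) in Grain1, Grain2, Grass1 and Grass2, with the reads written above each point and bars for the exact 95% Poisson interval. Both genes lay between 12.5 and 28.9 CPM in the grain-fed libraries and at 0 in the grass-fed libraries.

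Both genes were higher in Grain2 than in Grain1. By CPM, KRT5 was 1.64-fold higher there, and CA12 was 1.37-fold higher. Grain2 held 65.4% of the grain-fed reads of KRT5 (95% Wilson interval 59.7 to 70.6) and 61.2% of those of CA12 (54.0 to 68.0), while it held 53.5% of all grain-fed reads on genes. With the TMM factors of edgeR, which correct library sizes for composition, Grain2 held 48.6% of the grain-fed effective depth, and the ratios rose to 2.0 for KRT5 and 1.67 for CA12. The ratio of KRT5 reads to CA12 reads was 1.41 in Grain1 (95% Wilson interval 1.04 to 1.91) and 1.69 in Grain2 (1.34 to 2.13), so the proportion of the 2 transcripts was not distinguishable between the grain-fed steers at this depth. This compares 2 libraries and says nothing of other steers.

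For comparison, other genes with similar grain-fed reads were taken, within 1.25-fold of the total of each gene. For KRT5, with 289 grain-fed reads, 774 other genes with 232 to 361 reads were read in both grain-fed libraries. Their levels in the 2 libraries differed by a median of 0.95 on the log2 scale, against 0.72 for KRT5, and 39.7% of them were closer. For CA12, with 183 grain-fed reads, 913 genes with 147 to 228 reads were read in both libraries. Their median difference was 1.05, against 0.46 for CA12, and 21.7% were closer. By CPM, the median of these genes was lower in Grain2, at -0.39 for the KRT5 set and -0.20 for the CA12 set on the log2 scale. KRT5 (0.72) and CA12 (0.46) were higher there. Effective library sizes would raise all these values, and the medians were not computed with them, so their sign may depend on the scaling.

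The same genes show how many grass-fed reads a gene of that depth had. In the KRT5 set the median was 407 reads over both grass-fed libraries, 5% of the genes had 123 or fewer, and the highest had 1974. None of the 774 had 0 grass-fed reads, and the lowest was CHST13 (ENSBTAG00000008778), which encodes a chondroitin sulfotransferase and had 1 grass-fed read. In the CA12 set the median was 270, 5% had 73.6 or fewer, and 2 of the 913 had 0. Those 2 were read almost wholly in 1 grain-fed library: HELQ (ENSBTAG00000018151), a DNA helicase gene, had 3 and 203 reads, and ENSBTAG00000017305 had 208 and 2. Both were singled out after their values were seen. The lists of like genes were formed on grain-fed reads only, whereas KRT5 and CA12 were chosen on having reads in both grain-fed libraries and none on grass, so their ranks between the grain-fed libraries and on grass are a description.

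The ratio between the diets has only a lower limit, because the grass-fed group had no read. Against a floor of 3 reads over both grass-fed libraries, or 0.211 CPM, the grain-fed level of KRT5, 23.7 CPM over the summed libraries, was at least 112-fold higher, or 6.81 on the log2 scale. That of CA12, 15 CPM, was at least 71.0-fold higher, or 6.15 on the log2 scale. These limits take the grain-fed reads as exact, and with the lower end of their 95% Poisson interval they were 99.6 for KRT5 and 61.1 for CA12. The limit is set by the depth as much as by the genes. With effective library sizes in place of read totals it rose to 175 for KRT5 and 111 for CA12. With a floor of 3 reads in each grass-fed library it fell to 56.1 and 35.5. Without Grass1 the limits were 58.7 and 37.2, and without Grass2 they were 53.4 and 33.8, since a count of 0 shows less at a lower depth. The counts do not separate ratios above these limits from a complete absence on grass.

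At a minimum of 50 reads in each grain-fed library and 0 in each grass-fed library, KRT5 and CA12 were the whole set, 2 of all 24616 genes or 0.00812%. They made up 0.0602% of the 3320 genes that reached 50 reads in each grain-fed library. The median of these 3320 genes over the grass-fed libraries was 590 reads, 1% of them had 70.4 or fewer, and 20 had under 50. Between KRT5 and CA12 and the rest lay 2 genes with 1 to 3 grass-fed reads and 1 gene with 4 to 9. The genes of this set were selected on the contrast itself, so the share is a description.

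The set held the same 2 genes at minimums of 20, 30, 50 and 70 reads, and KRT5 alone at 100. It grew to 4 genes at 10 reads, 9 at 5, 16 at 3, 29 at 2 and 72 at 1 read. CA12, with 71 reads in its lower library, was the last gene inside the minimum of 50. The next gene down was ENSBTAG00000047986, with 85 and 16 reads in the grain-fed libraries, followed by ENSBTAG00000039237, with 47 and 15. No gene had a lower grain-fed value between 16 and 71 reads together with 0 grass-fed reads. Grain2 held 15.8% and 24.2% of the grain-fed reads of these genes, so they leaned to Grain1, unlike KRT5 and CA12.

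**Figure D2:**
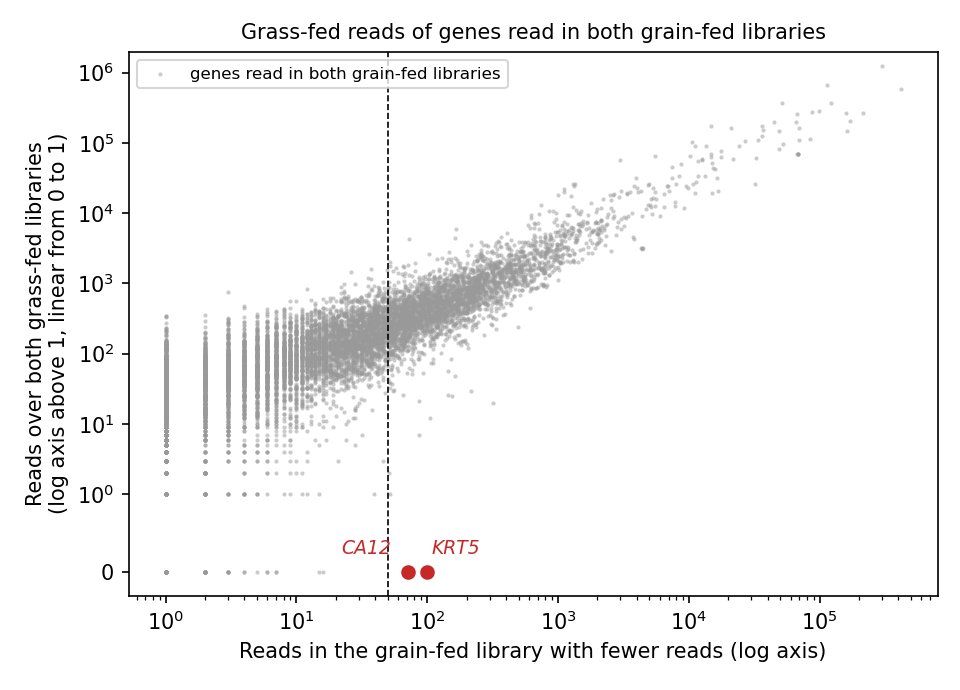
Reads in the grain-fed library with fewer reads (x, log axis) against reads over both grass-fed libraries (y, log axis above 1 and linear from 0 to 1) for the 9628 genes read in both grain-fed libraries, with the minimum of 50 reads as a dashed line. KRT5 and CA12 (red) sit at 0 grass-fed reads to the right of that line, and every other gene at 0 lies at 16 reads or fewer.

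With the diets exchanged, 1 gene, or 0.00406% of all genes, had at least 50 reads in each grass-fed library and 0 in each grain-fed library. It was ENSBTAG00000006359, with 51 and 61 grass-fed reads. The order of the 2 counts depended on the minimum. At 1 read, 1084 genes were read in both grass-fed libraries and neither grain-fed library, against 72 the other way. At 10 reads there were 110 against 4, at 20 reads 25 against 2, and at 30 reads 5 against 2. At 70 reads there were 0 against 2. The grass-fed libraries also had more reads on genes and more genes with a read, as given above.

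**Figure D3:**
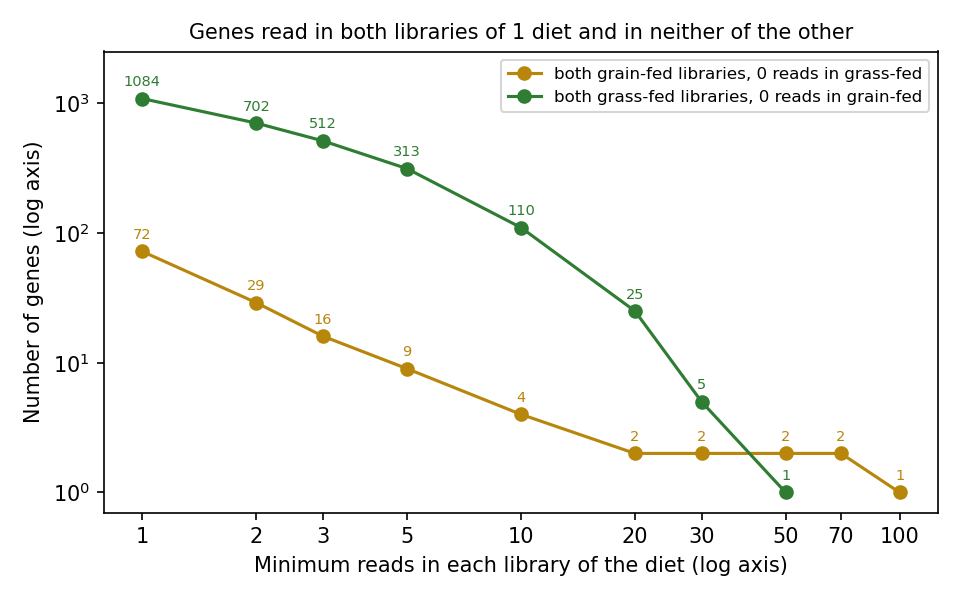
Number of genes (log axis) read in both libraries of 1 diet and in neither of the other, against the minimum reads asked of each library of that diet (log axis). The grain-fed line (gold) falls from 72 genes to 2 and stays at KRT5 and CA12 from 20 to 70 reads, while the grass-fed line (green) falls from 1084 genes to 1 at 50 reads; counts of 0 are not drawn.

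Reads in only 1 grain-fed library were the commoner pattern among genes without grass-fed reads. Without a grass-fed read, 25 genes reached 50 reads in Grain1, and 21 of these had 0 reads in Grain2. The same numbers held with Grain2 and Grain1 exchanged. In each direction the 2 genes that also reached 50 reads in the other library were KRT5 and CA12.

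Allowing up to 3 reads over both grass-fed libraries, as many as a count of 0 could hide, brought the set at 50 reads from 2 genes to 4. The added genes were GSTT3 (ENSBTAG00000008587), a glutathione S-transferase gene, with 155 and 52 grain-fed reads and 1 grass-fed read, and ENSBTAG00000048135, with 51 and 77 grain-fed reads and 2 grass-fed reads. At 20 reads the set had 7 genes. The other 3 were CHST13, with 267 and 39 grain-fed reads and 1 grass-fed read, ENSBTAG00000017121, with 46 and 95 against 3, and ENSBTAG00000046050, with 21 and 35 against 3. Their balance between the grain-fed libraries differed. Grain2 held 12.7% of the grain-fed reads of CHST13 and 25.1% of those of GSTT3, but 60.2% to 67.4% of those of the 3 genes without a name, a range that holds KRT5 and CA12.

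Likeness of pattern was measured over the 4 libraries as the Euclidean distance of log2(CPM + 1), on which 0 is an identical profile. CA12 was the gene nearest to KRT5, at 0.86. The next were ENSBTAG00000002055 at 1.34, ENSBTAG00000017121 at 1.48, ENSBTAG00000048135 at 1.57 and ENSBTAG00000017827 at 1.83. Nearest to CA12 were ENSBTAG00000048135 at 0.76 and ENSBTAG00000017121 at 0.78, ahead of KRT5 at 0.86, and then ENSBTAG00000002055 at 0.95 and ENSBTAG00000017827 at 1.46. The 5 nearest genes of KRT5 and of CA12 were thus the same 4 genes and each other. ENSBTAG00000002055 had 92 and 87 grain-fed reads with 3 and 4 grass-fed reads, so it was low but read in every library. ENSBTAG00000017827 had 28 and 152 grain-fed reads and 0 and 5 grass-fed reads. With 4 libraries such nearness says that the levels were similar, and nothing of shared function or control.

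**Figure D4:**
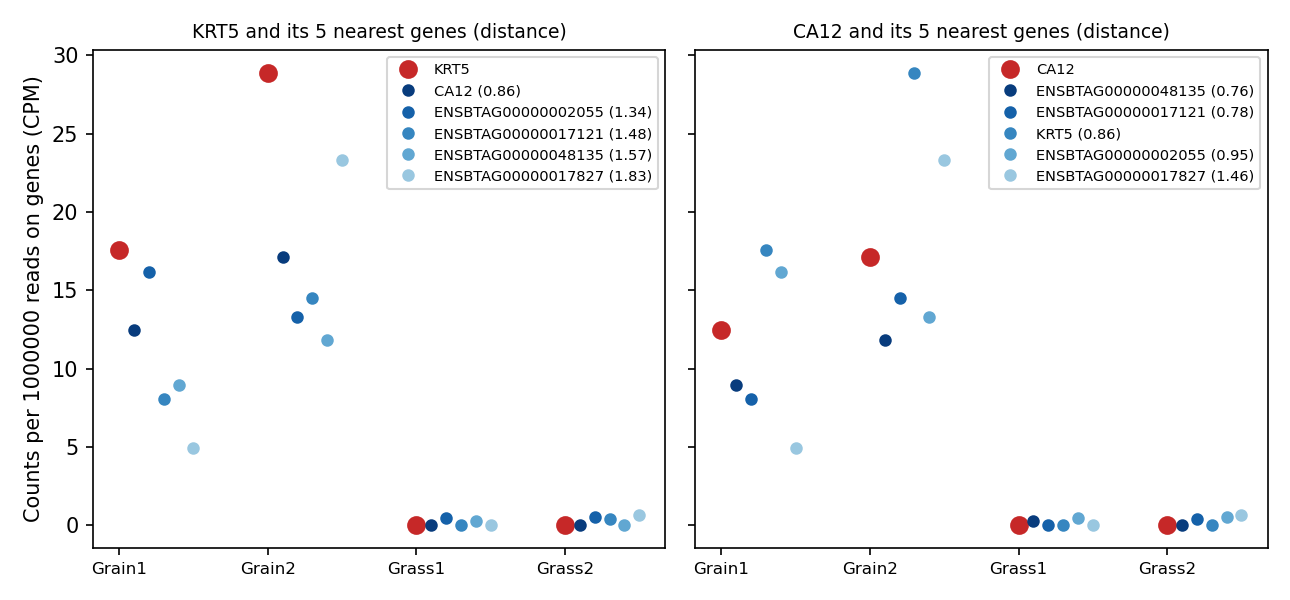
Level in CPM (y) in the 4 libraries for KRT5 (left, red) and CA12 (right, red) with the 5 nearest genes of each in blue, darker for nearer, offset sideways for legibility; the distance on log2(CPM + 1) stands in the legend. All the genes shown lie at 4.93 CPM or more in both grain-fed libraries and at 0.671 or less in both grass-fed libraries.

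The partner genes of KRT5 and CA12 could be followed only in small part, because 27 symbols are paired with identifiers in the sources used here. Of the 28 type I keratins on the list, KRT20 (ENSBTAG00000007794), a keratin of intestinal epithelium, has a name, and of the 26 type II keratins KRT5 alone. KRT20 had 146 reads in Grass1 and 0 in Grain1, Grain2 and Grass2. Of the 15 carbonic anhydrases CA12 alone has a name, and of the 20 genes of the basal epithelial layer KRT5 alone. No gene has a name among the lists for suprabasal epidermis (20 genes), desmosomes (17), glandular epithelium (20), bicarbonate and proton transport (21), fat (12), erythroid cells (12), melanocytes (8) and kidney tubule (10). None of the 20 skeletal muscle markers has a name either, and the labelled tissue was not checked against them.

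Other epithelial genes have a name but are on no list, and they were singled out after their values were seen. VIL1 (ENSBTAG00000018543), the microvillus protein villin, had 371 reads in Grass1, FABP2 (ENSBTAG00000017045), the intestinal fatty acid binding protein, 217, RBP2 (ENSBTAG00000015056), a retinol binding protein of the intestine, 523, and CDHR2 (ENSBTAG00000025340), a cadherin of the brush border, 182. ALPI (ENSBTAG00000012363), the intestinal alkaline phosphatase, lay between FABP2 and VIL1 in Grass1. Each of these 5 had 0 reads in Grain1, Grain2 and Grass2, as did KRT20. CDHR5 (ENSBTAG00000047914), the partner of CDHR2 in the brush border, had 221 reads in Grass1, 23 in Grass2, 4 in Grain1 and 0 in Grain2. These intestinal genes were thus high in Grass1 and at or near 0 in both grain-fed libraries, where KRT5 and CA12 were read. The pattern was not shared by A2ML1 (ENSBTAG00000004097), a protease inhibitor gene best known from the upper layers of stratified epithelium, which had 220 reads in Grain1 and 0 in the other libraries, nor by PLA2G2A (ENSBTAG00000013039), a secreted phospholipase gene, which had 185 reads in Grain2 and 0 in the others. CDHR5 was named, like KRT5, as one of the changed genes that the study took to qPCR, and the other 7 come from its list of strongest changes in these libraries, so their directions are not independent evidence.

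Of the 18 liver genes 2 have a name. FGB (ENSBTAG00000022120), the fibrinogen beta chain, had 1441 and 86 grain-fed reads and 21 and 0 grass-fed reads. TTR (ENSBTAG00000010991), transthyretin, had all of its 253 reads in Grain1. Both leaned to Grain1, whereas KRT5 and CA12 leaned to Grain2. The names of KRT20 and TTR come from the list of strongest changes that the study drew from these libraries, and FGB was named as one of the changed genes it took to qPCR, so the directions of all 3 are not independent evidence.

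Across all 10461 genes tested between the diets with limma, 0 genes (0.0%) had a Benjamini-Hochberg adjusted p-value under 0.1, and 918 had an unadjusted p-value under 0.05. The tests on the recovered reads covered other numbers of genes, because their filters differed. The quasi-likelihood test of edgeR called 0 of 9533 genes, of which 942 had p under 0.05 before adjustment. Its likelihood ratio test, run without a filter, called 173 of 24616 (0.703%). DESeq2 called 293 of 16288 (1.8%), which are all genes with a read in any library. Its own filter, which decides the genes given an adjusted p-value, acts within that number. KRT20, FGB and TTR were not called by limma, with adjusted p-values of 0.654, 0.424 and 0.63. The likelihood ratio test called FGB and TTR, and DESeq2 called TTR. These genes have a name here through changes that the study drew from the same libraries, so their calls are not independent evidence. KRT20 was read in Grass1 alone and TTR in Grain1 alone. KRT5 and CA12 were chosen on this contrast, and no p-value is given for them.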

How the data were processed

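RNA from muscle of 4 steers was sequenced, and the authors ran Bowtie against BosTau6 (UMD3.1), counted reads on Ensembl genes with GenomicRanges and used edgeR, with versions not stated. The values deposited are a signal, namely edgeR pseudo-counts, in which the authors adjusted the reads of each library to a common effective size under a negative binomial model. The adjustment was inverted here (dispersion 0.605024), with a relative tolerance of 1e-05. On simulated counts of 15071 genes, 100% of the reads were recovered. KRT5 was paired with its identifier by the primer table of the study, and CA12 by a log ratio found for 1 gene only; the RefSeq table holds no Ensembl identifiers.

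Levels are in CPM, counts per 1000000 reads on genes. For the diet contrast, log2(x + 1) was fitted by limma-trend (3.58.1), where x is the value per 1000000 of the mean column total, in genes whose mean x was 1 or more, with the threshold of the study, an adjusted p-value of 0.1. The alternatives were count tests of those reads by DESeq2 1.42.0 and edgeR 4.0.16, other filters, pseudocounts, scalings, minimums and floors, and each library left out (R 4.3.3). The limma, edgeR and DESeq2 tests were run on simulated counts first. The members, the 14 gene lists and the minimums were chosen with earlier results of these data known. Genes were named if they were KRT5 or CA12, had a name on a list, had at least 20 reads in each grain-fed library and 0 on grass, were among the 5 nearest, or lay beside the minimum of 50; the others named were chosen after their values were seen. Metabolites, blood values and qPCR values are not used here.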

Additional observations from a re-analysis of the deposited data

How the results depend on the processing

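KRT5 and CA12 were chosen on having 0 grass-fed reads, which no setting can alter, so only the size of the limit and the grain-fed level could change. For KRT5 the limit of 112 went to 175 with effective library sizes, 83.8 with deposited values and column totals, 135 without the 20 genes with most reads and 56.1 with a floor of 3 reads in each grass-fed library. With each library left out in turn it lay between 53.4 and 137. For CA12 the limit of 71.0 went to 111, 53.0, 85.3 and 35.5 under the same settings, and lay between 33.8 and 81.3 with a library left out. The grain-fed level of KRT5 went from 23.3 to 50.3 CPM without the 20 genes with most reads, and that of CA12 from 14.8 to 31.9. With effective library sizes the levels were 29.8 CPM for KRT5 and 18.8 for CA12. A smaller denominator raises every level by construction.

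The count of 2 genes read in both grain-fed libraries alone went to 72, 9 and 4 genes at minimums of 1, 5 and 10 reads and to 4 genes when up to 3 grass-fed reads were allowed. It held at 20, 30 and 70 reads and at 5 CPM. With a library left out it lay between 2 and 25. It was 25 when either Grain1 or Grain2 was dropped, 9 when Grass1 was dropped, and 2 when Grass2 was dropped. Dropping a library removes a condition of the selection, so the count could stay or rise but not fall. The limma count of 0 of 10461 genes went to 122 of 24616 without a filter, 173 of 24616 with the likelihood ratio test, also without a filter, and 293 of 16288 with DESeq2. Test and filter changed together in the last 2, and the cause was not tested. Without a filter limma called 112 genes higher and 10 lower on grass. The likelihood ratio test called 49 higher and 124 lower, and DESeq2 87 and 206, so the main direction was not shared. The count of called genes among KRT20, FGB and TTR changed in the likelihood ratio test and DESeq2 alone. Elsewhere it stayed at 0, but some of these genes were not tested there. The quasi-likelihood test gave no value for KRT20 and TTR. Limma gave none for KRT20 with a stricter filter or without Grass1, and none for TTR without Grain1. An unchanged count in those settings therefore says nothing of the genes left out. No paired analysis was possible because the diets share no replicate numbers in the labels.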
